A study of Mus musculus with 2 samples.

Results

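The cells described here are blood capillary endothelial cells of mouse lymph nodes that carry transcripts of Penk, Col13a1 and Efhd1. They were chosen from unique molecular identifiers (UMIs, each marking 1 captured RNA molecule) in single cells. A kept cell had at least 500 detected genes, at most 10% mitochondrial UMIs, and at least 10 UMIs of its leading hashtag, a number at least 3 times that of the next hashtag. A kept blood endothelial cell also had at least 3 UMIs of Flt1, Ly6c1 and Cd34 together, more than of the lymphatic genes Prox1, Pdpn, Mmrn1 and Lyve1, and fewer than 20 UMIs of Glycam1. A member had at least 2 UMIs of Penk, Col13a1 and Efhd1 together, and more of them than of each of the other 5 panels of marker genes, which stand for arterial, Scgb3a1 capillary, Enpp2 transitional capillary, Apln tip-like and venous cells. In all, 403 cells met the rule, of 10612 barcodes and of 5260 kept blood endothelial cells. Library 1 gave 274 of them and library 2 gave 129.

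The study compared wild-type (WT) with Xbp1-KO mice, and peripheral with mesenteric lymph nodes. XBP1 is a transcription factor that acts when unfolded proteins build up in the endoplasmic reticulum. Every group was treated with tamoxifen, WT included, and the labels give no Cre driver, age, sex or number of animals. Each of the 2 droplet libraries held the same 4 hashtagged pools, 1 for each genotype in each kind of node, so each group had n = 2 pools. Nothing says that the libraries came from separate animals, and p-values measure only the spread between these pools.

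Library 1 held 33024170 gene UMIs in 7709 barcodes and library 2 held 14744778 in 2903, and 3 barcodes occurred in both, none of them a member. Sex-linked transcripts were opposed between the libraries. Xist, the RNA that silences an X chromosome in females, had a UMI in 3.04% to 4.04% of blood endothelial cells of the WT pools of library 1 and in 62.8% to 68.3% of its Xbp1-KO pools. In library 2 the WT pools had 72.7% to 77.2% and the Xbp1-KO pools at most 0.813%. The Y-linked gene Ddx3y ran the other way. Genotype was therefore crossed with these transcripts from library to library, and a sex is not labelled. Xbp1 itself was lower in every Xbp1-KO pool of blood endothelial cells, with 91.3 and 109 CPM (UMIs scaled to a sum of 1000000 per pool) in peripheral and 118 and 146 CPM in mesenteric nodes (library 1 first). The WT pools had 166 and 155 CPM, and 215 and 263 CPM. The log2 difference was -0.74 ± 0.13 (SE), with an adjusted p of 1.0 in edgeR's quasi-likelihood test and 0.00411 with the library as a replicate block. The deleted part of Xbp1 is not labelled, so these 3′ counts are a limited check of the labels.

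Lymph nodes receive blood through arterioles that branch into capillaries, which lead into the high endothelial venules where lymphocytes enter. Penk encodes proenkephalin, the precursor of the enkephalin opioid peptides. Col13a1 encodes a transmembrane collagen of cell-matrix contacts, and Efhd1 a calcium-binding protein of mitochondria. In the GRCm38 annotation, Penk (ENSMUSG00000045573) lies on the minus strand at chr4:4133531-4138819 and Col13a1 (ENSMUSG00000058806) on the minus strand at chr10:61838236-61979108. Efhd1 (ENSMUSG00000026255) lies on the plus strand at chr1:87264363-87310839.

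The promoters of 2 of the 3 panel genes are shown because their transcripts define these cells and were detected together in them. The sequences are from RefSeq on GRCm38.p6, run 5′ to 3′ on the gene's strand, and hold 250 bases before and 50 after the start. Capitals mark matches to the searched motifs.
Col13a1 promoter: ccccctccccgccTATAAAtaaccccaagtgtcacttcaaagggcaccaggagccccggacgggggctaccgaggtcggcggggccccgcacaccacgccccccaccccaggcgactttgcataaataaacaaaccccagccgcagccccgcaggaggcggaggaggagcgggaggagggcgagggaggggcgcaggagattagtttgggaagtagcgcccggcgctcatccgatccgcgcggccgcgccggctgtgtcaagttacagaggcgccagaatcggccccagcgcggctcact
Efhd1 promoter: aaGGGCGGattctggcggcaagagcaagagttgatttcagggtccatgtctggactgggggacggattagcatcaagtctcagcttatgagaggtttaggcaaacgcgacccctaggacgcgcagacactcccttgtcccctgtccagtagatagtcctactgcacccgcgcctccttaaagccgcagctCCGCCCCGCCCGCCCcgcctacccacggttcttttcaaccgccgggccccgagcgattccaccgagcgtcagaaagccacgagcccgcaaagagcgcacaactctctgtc
The Col13a1 window, at chr10:61979059-61979358 on the minus strand, had 68.0% G and C. The Efhd1 window, at chr1:87264103-87264402 on the plus strand, had 60.7%, against a median of 52.7% over all promoters. Both strands were searched for 5 motifs in 32851 promoters of that length. TATAAA (the TATA box) occurs in 13.6% of them, TGACGTCA (the cAMP response element) in 1.79%, TGACGTGG (the unfolded protein response element) in 0.676%, AGGAAG (an ETS core) in 35.4%, and GGGCGG (the SP1 box) in 35.7%. Col13a1 held TATAAA at -237, on the plus strand, and none of the others. Efhd1 held 4 GGGCGG, at -248 on the plus strand and at -60, -55 and -51 on the minus strand, where neighbouring matches overlap.

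The panel genes marked overlapping rather than identical sets of cells, and these counts describe how members were chosen. Col13a1 was detected in 363 members (90.1%), Efhd1 in 199 (49.4%) and Penk in 149 (37.0%). Col13a1 was the sole panel gene detected in 121 members, Penk in 16 and Efhd1 in 15. Both Col13a1 and Efhd1, without Penk, were found in 118, Penk and Col13a1 in 67, Penk and Efhd1 in 9, and all 3 genes in 57. A member had a median of 4 panel UMIs and at most 31, in a median of 2979 UMIs and 1378 genes per cell. Just inside the threshold were 80 members with 2 panel UMIs, of which 13.8% had Penk and 75.0% came from peripheral nodes. Just outside were 730 cells with 1 panel UMI, of which 1.64% had Penk and 55.3% were peripheral. A further 325 cells with at least 2 panel UMIs were left out because another panel was as high.

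Outside the members, where the rule itself keeps panel UMIs low, Penk was detected in 0.913% of 876 Scgb3a1 capillary cells, 0.290% of 1722 Enpp2 transitional cells and 0.360% of 556 arterial cells. The median depths were 2636, 3360 and 2443.5 UMIs per cell. It had no UMI in 112 Apln tip-like and 135 venous cells, which allows shares of up to 2.68% and 2.22% with a UMI. Lymphatic endothelial cells, which should lack all 3 genes, had Penk in 0.194% and Efhd1 in 0.582% of 3608 cells, and Col13a1 in 1.97%, at a median of 5524.5 UMIs. Col13a1 was seen at lower rates well outside the members, in 21.1% of Scgb3a1 capillary cells and 16.1% of Enpp2 transitional cells. Efhd1 was found in 14.03% of arterial cells. Over all kept blood endothelial cells, 77.0% of the 178 cells with Penk also had Col13a1, compared with 19.3% of the 5082 cells without it. Median depths were 2941.5 and 2754 UMIs. By tissue, the shares with Col13a1 were 80.0% of 165 and 25.4% of 2607 cells in peripheral nodes. In mesenteric nodes they were 38.5% of 13 and 12.9% of 2475 cells. Efhd1 was detected in 24.7% of cells with Col13a1 and 7.42% of cells without.

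Markers of endothelium were present: 393 of 403 members had a UMI of Pecam1 or Cdh5, both junctional proteins of endothelial cells. Pecam1 lay between 875 and 1530 CPM in the 8 pools of members and Cdh5 between 687 and 1569 CPM. Of 17 leukocyte markers, 12 had no UMI in any member, among them Ptprc and Cd3e, and the summed level of the list reached at most 58.1 CPM. The 12 lymphatic markers summed to 76.9 to 273 CPM and the 7 red cell and platelet markers to at most 39.4 CPM. Stromal markers were the exception. The list of 16 stromal and mural markers summed to 8033 CPM in WT mesenteric nodes of library 1, and to a median of 32.9 CPM over the 8 pools. There, 1 cell of 12043 UMIs held 507 of the 538 stromal UMIs, with 252 UMIs of Dcn, 39 of Col1a1 and 8 of Pdgfra, and 0 of Pecam1 and Cdh5. It met the rule through 2 UMIs of Penk and 4 of Efhd1. Results in members are given below with and without the 8 members that hold at least 5 UMIs of the stromal list (4 cells) or of the lymphatic list (5 cells), a limit set after these values were seen.

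Beside other kept blood endothelial cells of the same pool, members carried less RNA of high endothelial genes. That list of 13 summed to a median of 651 CPM in members and 2134 CPM in the other cells. It holds Glycam1 and Enpp2, which the rule limits in members, and Enpp2 alone had medians of 151 and 838 CPM. In Scgb3a1 capillary cells the list summed to a median of 963 CPM. As members were chosen by their transcripts, these contrasts are descriptions with no test. Of 2648 genes at 50 CPM or more in the higher of both cell sets in every pool, 147 were higher in members in 8 of 8 pools and 119 were lower in 8 of 8. The log2 ratios were computed after adding 0.5 UMI to each sum. Plpp3 and Plpp1 encode phosphatases of bioactive lipids at the cell surface. Plpp3 had a median of 3877 CPM in members, lying between 2807 and 5346 CPM, and a median of 1065 CPM in other blood endothelial cells, lying between 978 and 1419 CPM, so that the sets did not overlap. Plpp1 had medians of 873 and 270 CPM. Ehd4, a protein of endosomal membranes, had medians of 1292 and 360 CPM.

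Genes of the rule were left out of this ranking; of the panel, Col13a1 was at 3.40 and Efhd1 at 3.14. The ranking took only genes with the same sign in 8 of 8 pools. Among these, outside the rule, the largest median log2 ratio of members to other cells belonged to Tnfaip2, at 2.23. Itm2a, encoding a membrane protein, followed at 2.18. Esm1, encoding the secreted proteoglycan endocan, was at 1.66 with a wide spread, from 116 to 1115 CPM in members. Mef2c, a transcription factor, was at 1.52 and Hbegf, an epidermal growth factor receptor ligand, at 1.52. Exoc3l2, Pcp4l1, Fut8, Rbp7, Lifr, Syne1 and Tbc1d2b had median ratios of 1.22 to 1.34. Of these 15 genes, 12 were also higher in members than in Scgb3a1 capillary cells in 8 of 8 pools; the exceptions were Exoc3l2 (7 pools), Tbc1d2b (7 pools) and Rbp7 (5 pools). All 15 were higher than in Enpp2 transitional cells in 8 of 8. These 876 Scgb3a1 and 1722 Enpp2 cells are part of the 4857 other cells against which the genes were picked. The choice itself favours such counts, and they are no support.

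Lower in members were Ccl21a, a lymphocyte-attracting chemokine of high endothelium, at a median log2 ratio of -4.05, and Ubd, a ubiquitin-like protein, at -3.24. Cldn5, a tight-junction protein, was at -2.90, with a median of 56.3 CPM in members against 386 CPM in other cells. Aqp1, a water channel, was at -2.07, and its median was 432 CPM against 1821 CPM. Genes of class II antigen presentation, Cd74 and H2-Ab1, were at -2.33 and -1.60, and Fabp5 and Tcf15, genes of fatty acid handling, at -1.87 and -1.63. Spint2, Dsg2, Tspan7, Vim, Slco3a1, Cfb and Apoe lay between -2.33 and -1.59. Beside Scgb3a1 capillary cells the contrast was weaker for most of these 15 genes. Apoe (-1.09) and H2-Ab1 (-1.66) were lower in members in 8 of 8 pools there, whereas each of the other 13 was higher in members in 1 or 2 pools. Ccl21a was at -0.55 in that comparison, with medians of 17.3 and 33.4 CPM, and Vim at -0.34. Several of these genes had 0 UMIs in the smallest pools of members, so their lowest ratios depend on the added 0.5 UMI.

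**Figure D1:**
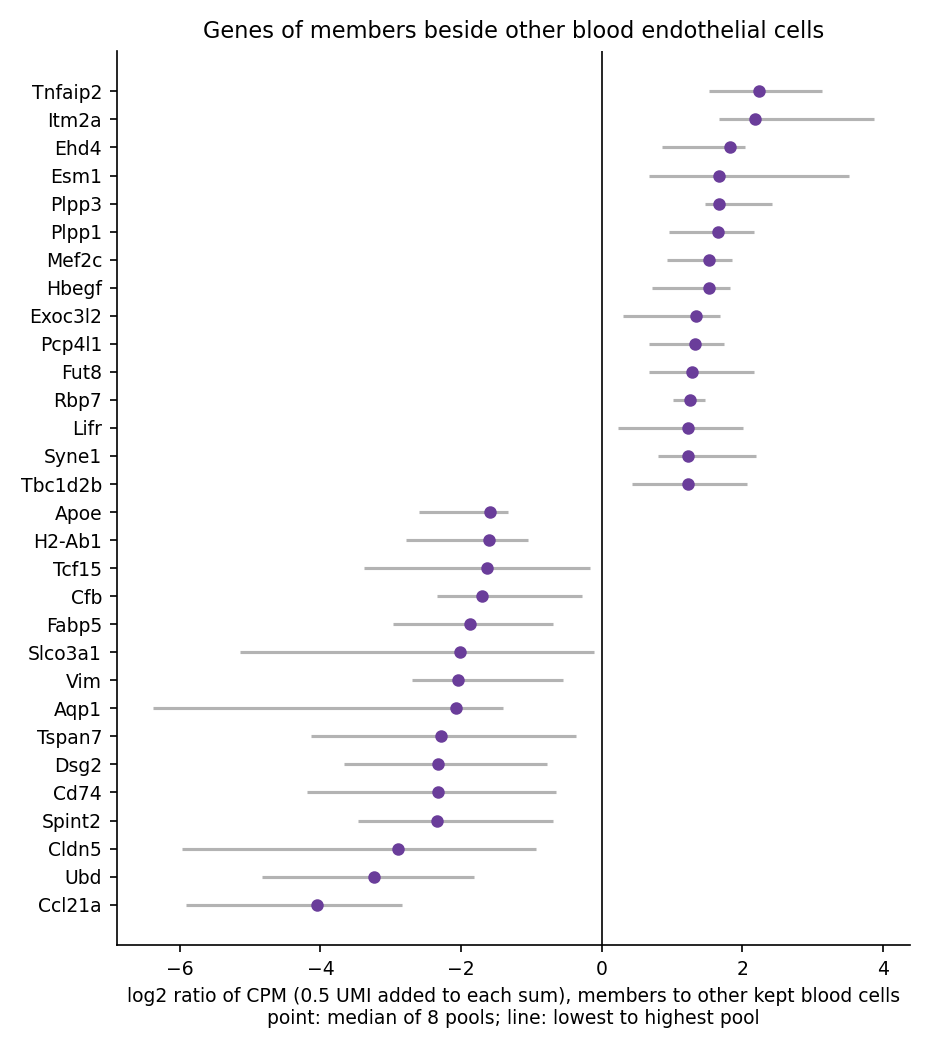
Log2 ratio of the level in members to that in other kept blood endothelial cells (x axis, log2 units) for the 15 genes with the largest and the 15 with the smallest median ratio, genes of the rule left out; points are medians of 8 pools and lines run from the lowest to the highest pool. Tnfaip2 (2.23) and Itm2a (2.18) stand at the top and Ccl21a (-4.05) at the bottom, and no line crosses 0 because the genes were picked for the same sign in every pool.

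The genes whose level followed that of the panel most closely were sought over 16 sums, the members and the Scgb3a1 capillary cells of each pool. Over 3085 genes with at least 200 UMIs, the highest Spearman correlations with summed panel CPM belonged to Ehd4 (0.95), Timp3 (0.94), Mef2c (0.92), Itm2a (0.89) and Tgfbr2 (0.88). Exoc3l2, Plpp3, Syne1, Cd24a and Fut8 followed at 0.82 to 0.86. Timp3 is a matrix metalloproteinase inhibitor and Tgfbr2 a receptor for transforming growth factor beta. The 2 sums of a pool share a library and a hashtag, and the cell sets differ by the rule itself, so these values only rank genes.

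Among the fixed gene lists, levels in members beside other cells were as follows. For the list of enkephalin processing, degradation and receptors, 13 of 19 genes had a UMI in members. The opioid receptors Oprd1, Oprm1 and Oprk1 had none, nor did Pcsk2, a prohormone convertase, or Mme and Anpep, peptidases that degrade enkephalins. Pam, an enzyme that amidates peptide hormones, had a median of 393 CPM in members and 99.3 CPM in other cells, and was higher in 7 of 8 pools. Furin, a general proprotein convertase, was alike at medians of 56.5 and 60.0 CPM and higher in 5 of 8. Ece1 had medians of 395 and 522 CPM.

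All 20 genes of the list of collagen XIII partners and basement membrane had a UMI, with summed medians of 8831 CPM in members and 8916 CPM in other cells. Itga1, an integrin subunit that binds collagens, was lower in members in 8 of 8 pools, at medians of 489 and 604 CPM. The list of mitochondrial calcium genes, Efhd1 included, summed to medians of 960 and 739 CPM. Its most abundant other member, Smdt1, a subunit of the mitochondrial calcium uniporter, had medians of 301 and 268 CPM.

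The capillary identity list was present in full, with 22 of 22 genes and summed medians of 25389 CPM in members and 27890 CPM in other cells. Its genes did not move as one. Plvap, which forms the diaphragms of fenestrae, was higher in members in 8 of 8 pools at medians of 4105 and 2600 CPM, and so was Kdr, the main receptor of vascular endothelial growth factor, at 1860 and 1036 CPM. Rgcc was higher in 8 of 8 pools at 1894 and 967 CPM. Fabp4, a carrier of fatty acids, was higher in 1 of 8 pools at 1879 and 6193 CPM, and Gpihbp1, which holds lipoprotein lipase at the capillary wall, in 1 of 8 at 673 and 994 CPM. Nrp1, a co-receptor for vascular endothelial growth factor, was at 1331 and 544 CPM, and Cxcl12, a chemokine, at 4565 and 2220 CPM, each higher in 8 of 8.

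Members made up a larger share of blood endothelial cells in peripheral than in mesenteric nodes in both libraries and both genotypes. In WT peripheral nodes they were 173 of 1113 cells in library 1 (15.5%, exact 95% interval 13.5% to 17.8%) and 23 of 263 in library 2 (8.75%, 5.62% to 12.8%). In Xbp1-KO peripheral nodes they were 76 of 904 (8.41%, 6.68% to 10.4%) and 75 of 492 (15.2%, 12.2% to 18.7%). WT mesenteric nodes gave 18 of 1150 (1.57%, 0.930% to 2.46%) and 7 of 293 (2.39%, 0.966% to 4.86%). Xbp1-KO mesenteric nodes gave 7 of 435 (1.61%, 0.649% to 3.29%) and 24 of 610 (3.93%, 2.54% to 5.80%). The intervals (Clopper-Pearson) cover counting error only. Every peripheral pool lay above every mesenteric pool.

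The mean share was 11.98% ± 3.94 (SD, n = 4 pools) in peripheral and 2.37% ± 1.11 (SD, n = 4) in mesenteric nodes, a difference of 9.61 percentage points. An exact two-sided permutation test gave p = 0.0286, the smallest value 4 against 4 pools allow, and 0.0571 after Benjamini-Hochberg adjustment over the 2 contrasts. With permutation within libraries p was 0.0556, again the smallest possible. The share rests on few UMIs per cell. With every cell thinned to 2000 UMIs, and 1332 blood endothelial cells left out as shallower, it was 8.06% to 14.97% in the peripheral and 1.19% to 2.48% in the mesenteric pools.

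No difference of that kind was found between genotypes on average. Xbp1-KO pools had 7.30% ± 6.001 and WT pools 7.06% ± 6.50 (SD, n = 4 each), with a difference of 0.238 percentage points and an exact two-sided permutation p of 0.971. Within peripheral nodes the libraries went opposite ways, as the Xbp1-KO share was 7.14 points below WT in library 1 and 6.50 points above it in library 2. The higher share belonged each time to the pool with low Xist and high Ddx3y; the part of those transcripts in the share was not tested. In mesenteric nodes the intervals of WT and Xbp1-KO overlapped within each library.

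**Figure D2:**
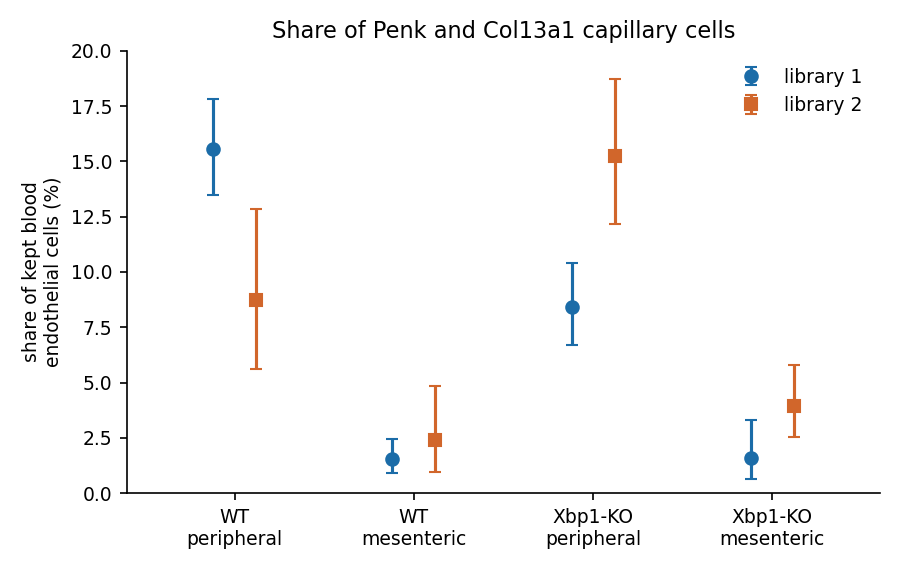
Share of members among kept blood endothelial cells (y axis, percent) in each of the 4 pools of libraries 1 and 2; points are pools and bars exact 95% binomial intervals. Peripheral pools lie between 8.41% and 15.5% and mesenteric pools between 1.57% and 3.93%, with the order of WT and Xbp1-KO peripheral pools reversed between the libraries.

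The panel genes were also compared over all kept blood endothelial cells. Their UMIs chose the members, and members held 402 of the 425 Penk UMIs in WT peripheral nodes of library 1, so these levels are no independent support for the share. Penk and Col13a1 were higher in peripheral nodes in both genotypes. Penk had 122 and 21.0 CPM in WT peripheral nodes and 53.7 and 109 CPM in Xbp1-KO peripheral nodes (library 1 first). In mesenteric nodes it had 10.8 and 0 CPM in WT and 2.41 and 2.36 CPM in Xbp1-KO. All 4 peripheral pools lay above all 4 mesenteric pools, although the lowest of them, WT of library 2, held 21 UMIs. The log2 difference was 4.19 ± 0.67 (SE), with an adjusted p of 0.0211 in edgeR over 10503 genes. In this contrast 0.819% of genes were called, and 0.352% as higher in peripheral nodes. The call was lost in 4 of the 8 fits that left out a pool: WT peripheral of library 1 (adjusted p 0.117), Xbp1-KO peripheral of library 2 (0.0516) and Xbp1-KO mesenteric of library 1 (0.0708) or 2 (0.0899).

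Col13a1 had 220 and 148 CPM in WT peripheral and 146 and 203 CPM in Xbp1-KO peripheral nodes. In mesenteric nodes it had 62.0 and 52.9 CPM in WT and 50.7 and 60.6 CPM in Xbp1-KO. The groups were well apart, with a log2 difference of 1.64 ± 0.18 (SE) and an edgeR adjusted p of 0.00205, called in all 8 fits that left out a pool. Efhd1 differed less, with 49.1 to 69.0 CPM in the peripheral and 27.4 to 39.7 CPM in the mesenteric pools. Its log2 difference was 0.80 ± 0.18 (SE), with an edgeR adjusted p of 0.0908, and 0.84 with an adjusted p of 0.00422 under the library as a replicate block, where 4.56% of genes were called. In these sums a lower share of members and less RNA per cell cannot be told apart.

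No panel gene was called between genotypes, where edgeR called 0 of 10503 genes (222 at an unadjusted p under 0.05). The log2 differences, Xbp1-KO minus WT, were -0.77 ± 0.75 for Penk, -0.05 ± 0.17 for Col13a1 and 0.10 ± 0.18 for Efhd1. The sign of each turned in some fits that left out a pool.

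**Figure D3:**
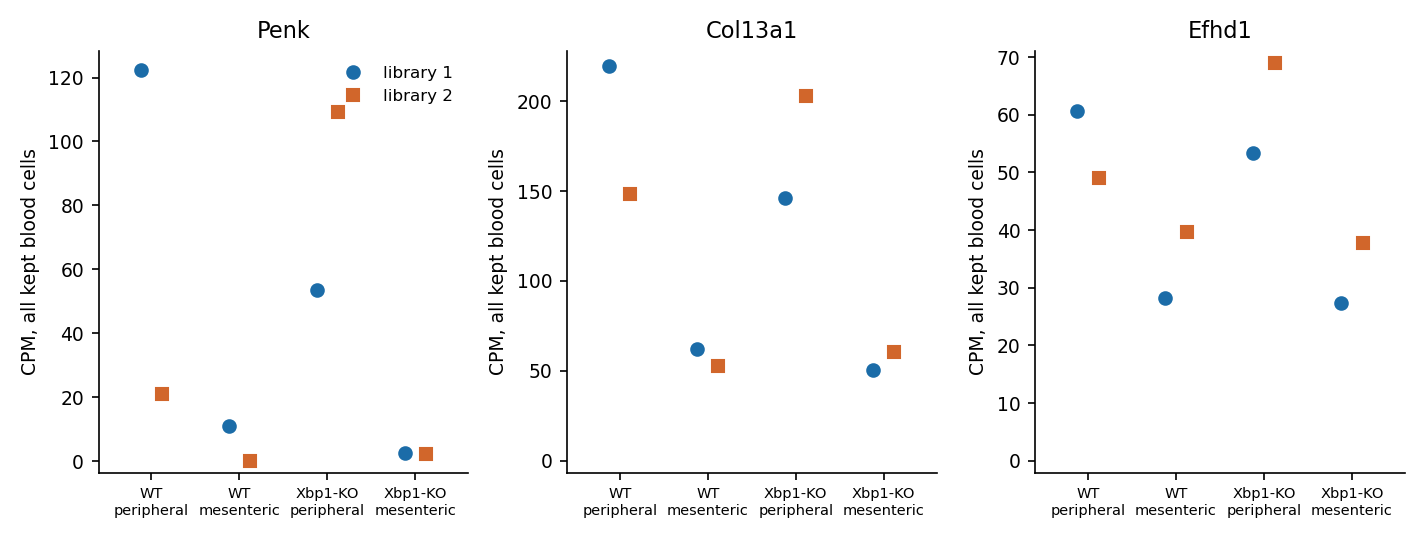
Levels of Penk, Col13a1 and Efhd1 (y axes, CPM) summed over all kept blood endothelial cells of each pool; each point is 1 pool of library 1 or 2. Col13a1 lies between 146 and 220 CPM in the peripheral pools and between 50.7 and 62.0 CPM in the mesenteric pools, and Penk spreads more among the peripheral pools (21.0 to 122 CPM).

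Within members, the panel genes themselves are described without a test. Col13a1 lay between 786 and 896 CPM in the 4 peripheral pools and between 418 and 988 CPM in the 4 mesenteric pools, so the ranges overlapped. Efhd1 was at 204 to 381 CPM and 116 to 299 CPM. Penk was at 237 to 718 CPM in peripheral pools. In mesenteric members it was at 448 and 0 CPM in WT and at 58.1 and 60.4 CPM in Xbp1-KO (library 1 first), where the 0 in 26002 UMIs allows up to 115 CPM. Penk was detected in 40.6% of the 347 peripheral and 14.3% of the 56 mesenteric members, with alike median depths of 2979 and 2993 UMIs. By pool the ranges overlapped, as 6 of the 8 mesenteric members with Penk were in WT nodes of library 1 (33.3% of its members), above WT peripheral nodes of library 2 (13.0%). Of the 56 mesenteric members, 23 had Col13a1 alone of the panel, 18 had Col13a1 and Efhd1, 7 had Efhd1 alone and 8 had Penk.

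Peripheral and mesenteric members were then compared across all genes, from counts summed per pool. The mesenteric sums held 7 to 24 cells and 17203 to 99377 UMIs, and the peripheral sums 23 to 173 cells and 76059 to 559810 UMIs. In the mesenteric sums 3 UMIs equal 44.8 and 115 CPM in WT and 174 and 30.2 CPM in Xbp1-KO, library 1 first. Of 2007 genes that passed the filter on low counts, edgeR called 5 (0.249%), with 4 higher in peripheral nodes (0.199%) and 1 lower (0.0498%), and 163 had an unadjusted p under 0.05. Bhlhe40, a transcriptional repressor, was higher, with 445 and 329 CPM in WT peripheral and 406 and 396 CPM in Xbp1-KO peripheral members, library 1 first. In mesenteric members it had 134 and 76.9 CPM in WT and 116 and 90.6 CPM in Xbp1-KO. The observed values did not overlap (394 ± 48.3 against 105 ± 25.7 CPM, SD, n = 4 each), but the 76.9 and 116 CPM were fewer than 3 UMIs each. The log2 difference was 1.90 ± 0.31 (SE) with an edgeR adjusted p of 0.0154.

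Itih5 encodes a protein that stabilises hyaluronan in the matrix. It had 690 and 789 CPM in WT peripheral and 744 and 725 CPM in Xbp1-KO peripheral members. It had 552 and 192 CPM in WT mesenteric and 58.1 and 161 CPM in Xbp1-KO mesenteric members. Its log2 difference was 1.57 ± 0.31 (SE) with an edgeR adjusted p of 0.0390. The observed values did not overlap, but the 58.1 CPM was fewer than 3 UMIs. Without the 8 members that carry stromal or lymphatic UMIs the difference was 1.90, with an adjusted p of 0.00285.

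Nfkbiz, an inducible regulator of NF-kB target genes, was also higher in peripheral members. It had 395 and 552 CPM in WT peripheral and 494 and 342 CPM in Xbp1-KO peripheral members, against 44.8 and 76.9 CPM in WT mesenteric and 58.1 and 292 CPM in Xbp1-KO mesenteric members. The 292 CPM of library 2 came closest to the peripheral range, and the 76.9 and 58.1 CPM were fewer than 3 UMIs each. The log2 difference was 1.90 ± 0.38 (SE), with an edgeR adjusted p of 0.0390, and it was 3.06 without the Xbp1-KO mesenteric nodes of library 2.

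Cxcl1, a chemokine that attracts neutrophils, had 238 and 197 CPM in WT peripheral and 304 and 213 CPM in Xbp1-KO peripheral members. In mesenteric members it had 29.9 and 0 CPM in WT and 0 and 111 CPM in Xbp1-KO, where a count of 0 allows up to 115 and 174 CPM. The fitted log2 difference was 2.40 ± 0.48 (SE), with an edgeR adjusted p of 0.0390. Because 2 pools were at 0 it depends on the prior count and is no bound, and it ran from 2.20 to 5.95 when a pool was left out.

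Hspa1a, an inducible heat shock chaperone, was the gene called lower in peripheral members. It had 757 and 1459 CPM in WT peripheral and 1259 and 2188 CPM in Xbp1-KO peripheral members, against 1568 and 5923 CPM in WT mesenteric and 3604 and 8855 CPM in Xbp1-KO mesenteric members. The peripheral sum of Xbp1-KO in library 2 exceeded the mesenteric sum of WT in library 1, but within each library and genotype the mesenteric sum was higher, in 4 of 4 pairs. The log2 difference was -1.79 ± 0.36 (SE) with an edgeR adjusted p of 0.0390. Bhlhe40, Itih5, Nfkbiz and Cxcl1 were likewise higher in peripheral nodes in 4 of 4 pairs.

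With the library as a replicate block, 14 genes were called (0.698%), with 6 higher (0.299%) and 8 lower (0.399%) in peripheral nodes, the 5 above among them. The added genes included Nfkbia, an inhibitor of NF-kB, higher in peripheral members at a log2 difference of 0.95, and Hspa1b at -1.52. Slc43a3 (-1.26), Slc6a6 (-1.29), Glul (-1.13), Klf6 (-1.19) and Klf2 (-0.87) were lower in peripheral members, all with edgeR adjusted p of 0.0381. Klf6 was higher in peripheral members in 1 of 4 pairs. Without the block, Glul ran from -1.39 to -0.48 and Klf6 from -1.31 to -0.51 when a pool was left out. The 14 also count Penk, which is read as no test here because its UMIs chose the members. S100a6 was called as well at -3.03, but 55 of the 61 UMIs behind the WT mesenteric sum of library 1 came from the 1 stromal cell. Without the 8 members of other markers, 10 genes were called (0.495%), again with the 5 above among them, with Hspa1b, Slc6a6, Glul and Thbs1, and S100a6 was not called; this count again holds Penk, with no test read from it. The number called rested on single pools. It was 0 without WT peripheral nodes of library 1 or Xbp1-KO peripheral nodes of either library, 1 without WT peripheral nodes of library 2, and 19 or 27 without WT mesenteric nodes of library 1 or 2.

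In WT alone edgeR called 0 genes (106 at an unadjusted p under 0.05). The lowest p belonged to Nfkbiz, Zfp36, Cxcl1, Bhlhe40 and Ier3 with positive differences, peripheral minus mesenteric (adjusted p 0.0731 to 0.306). Nid1, S100a6, Prss23, Sema3c and Heg1 had negative ones (0.0663 to 0.272). The blocked fit called 9 (0.448%), among them Nid1 and S100a6, of which the stromal cell held 75 of 85 and 55 of 61 UMIs in WT mesenteric nodes of library 1.

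None of these differences was shown to be particular to members. The tissue effect was compared with that in Scgb3a1 capillary cells of the same pools, and edgeR called a difference for 0 of 5177 genes (210 at an unadjusted p under 0.05). The lowest adjusted p belonged to S100a6 (0.0718), followed by Edn1 (0.235), and the other genes of lowest p (Ctdnep1, Trpc4ap, Csf2rb and Dctn1 with positive values, Fstl1, Gm34455, Slfn2 and Sema3c with negative ones) had 0.665 to 0.998. With the pool as a replicate block 6 were called (0.116%), namely Atf3, Edn1, S100a6, Fstl1, Fbn1 and Timp2. Without the 8 members, 0 of 5322 genes were called, S100a6 was at -0.87 and Fstl1 changed sign, from -3.37 to 1.48. In Scgb3a1 capillary cells, Itih5 was higher in peripheral nodes by 1.05 and Cxcl1 by 1.39, and Hspa1a was lower at -1.59 (edgeR adjusted p 0.0449 to 0.0480). Bhlhe40 was at 1.09 and Nfkbiz at 0.64 there, without passing (adjusted p 0.0697 and 0.771). In all other kept blood endothelial cells Bhlhe40 was higher in peripheral nodes by 0.94 (edgeR adjusted p 0.0369) and Itih5 by 1.53 (0.000646). Edn1, the precursor of endothelin, had 0 UMIs in both Xbp1-KO mesenteric sums of members, which makes its fitted values uncertain.

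**Figure D4:**
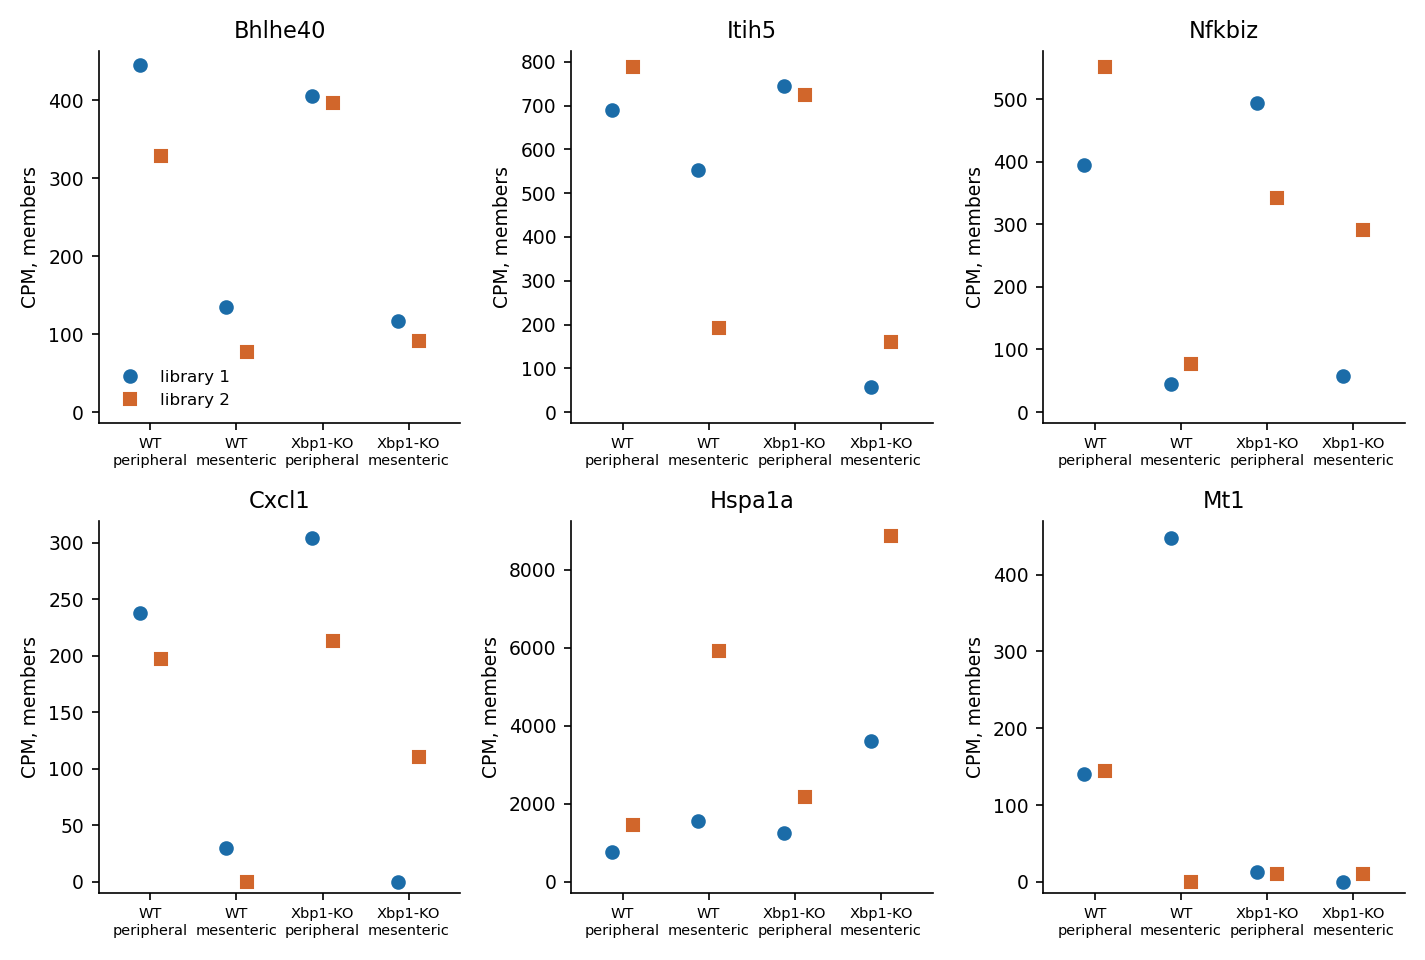
Levels in members (y axes, CPM) of the 5 genes called between peripheral and mesenteric nodes and of Mt1, called between genotypes; each point is the summed count of 1 pool of library 1 or 2. Bhlhe40 lies between 329 and 445 CPM in the peripheral pools and between 76.9 and 134 CPM in the mesenteric pools, whereas Mt1 stands at 448 CPM in WT mesenteric nodes of library 1.

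Between genotypes, few genes were called in members at this depth. Of 2007 genes edgeR called 1 (0.0498%), and 95 had an unadjusted p under 0.05. The gene was Mt1, a metal-binding metallothionein, lower in Xbp1-KO. It had 141 and 145 CPM in WT peripheral and 448 and 0 CPM in WT mesenteric members, against 12.7 and 10.2 CPM and 0 and 10.1 CPM in Xbp1-KO. The log2 difference was -4.28 ± 0.71 (SE) with an edgeR adjusted p of 0.0211, and Xbp1-KO was lower in 3 of 4 pairs. In WT peripheral nodes of library 1 its 79 UMIs lay in 17 of 173 cells, 28 of them in 1 cell. Elsewhere in WT, 27 of the 30 UMIs in WT mesenteric nodes of library 1 and all 11 UMIs in WT peripheral nodes of library 2 were in 1 cell each. Without the 8 members of other markers, or without WT mesenteric nodes of library 1, the call was lost. WT mesenteric members then held 0 Mt1 UMIs, so the fitted values of 0.09 and 0.10 depend on the prior count. In peripheral nodes alone the difference was -3.56 with an edgeR adjusted p of 0.321, and ran from -3.71 to -3.41 when a pool was left out. Over both tissues Mt1 was at 0.47 in Scgb3a1 capillary cells and -0.22 in other blood endothelial cells, without passing.

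The next genes by unadjusted p did not pass. Klf6 (1.23), Dnajb1 (1.34), Apold1 (1.02), Atf3 (1.51) and Socs3 (0.93) had positive log2 differences, Xbp1-KO minus WT, with edgeR adjusted p of 0.258 to 0.449. The Atf3 value ran from 0.13 to 1.85 when a pool was left out. Cd55, Edn1, Srp72 and Mgst3 had values of -4.48 to -1.55 with adjusted p of 0.262 to 0.396, and in WT mesenteric nodes of library 1 the stromal cell held 42 of the 42 Cd55 UMIs. WT mesenteric nodes of library 2 had 0 Cd55 UMIs, so the value without library 1 of that group, 1.08, depends on the prior count. Xbp1 in members had 121 and 92.0 CPM in WT peripheral and 105 and 269 CPM in WT mesenteric members. In Xbp1-KO it had 63.4 and 77.9 CPM, and 58.1 and 80.5 CPM, so the observed value of every Xbp1-KO pool was below every WT pool. The 58.1 CPM was fewer than 3 UMIs, which equal 174 CPM in that sum, so this order rests on few molecules. Its log2 difference was -0.84 ± 0.39 (SE) with an edgeR adjusted p of 0.983.

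By tissue, edgeR called 0 genes in peripheral members (13 at an unadjusted p under 0.05) and 0 in mesenteric members (125). In peripheral members the lowest p belonged to Heg1, Klf6, Ube3a, Kctd12 and Tspan12 among higher and Mt1, Cebpd, Cd55, Cd36 and Edn1 among lower genes, with adjusted p of 0.321 to 0.999. In mesenteric members they were Dnajb1 (2.56), Atf3 (2.79), Jun (1.13), Hspa8 (1.44) and Klf6 (1.70) among higher genes, with adjusted p of 0.0979 to 0.169, and Srp72, Nid1, Mt1, Mgst3 and Marcks among lower ones, with 0.169 to 0.271. Without the 8 members of other markers, Atf3 (3.93) and Dnajb1 (2.62) were called, each with an edgeR adjusted p of 0.0344, among 2 called genes (0.0989%). Over all mesenteric members, where the Atf3 difference of 2.79 was not called, Atf3 had 209 and 154 CPM in WT. It had 233 and 1952 CPM in Xbp1-KO, so the high level was that of library 2 alone. The difference of the genotype effect between the tissues was called for 0 genes in edgeR (85 at an unadjusted p under 0.05). The lowest p belonged to Dnajb1, Cebpd, Xdh, Hspa8 and Atf3, with larger values in mesenteric nodes, and to Srp72, Heg1, Mgst3, Nid1 and Sash1, with smaller ones (adjusted p 0.631 to 0.754).

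Over all pools the tested heat shock genes shared a sign between genotypes and between tissues, but not in peripheral nodes alone or in WT alone. In members, 13 of the 18 listed genes passed the filter, and all 13 log2 differences, Xbp1-KO minus WT, were positive with a median of 0.72, where the median of all genes was -0.01. None passed the test. The median was 0.01 in peripheral nodes, with 8 of 13 positive, and 1.44 in mesenteric nodes, with 13 of 13. Between tissues 0 of 13 were positive, with a median of -0.67, and 1 was called lower in peripheral nodes, Hspa1a, where 0.0498% of all genes were called lower. In WT alone 5 of 13 were positive with a median of -0.15. The summed level of the list was 12654 and 15659 CPM in WT peripheral, 13198 and 16240 CPM in Xbp1-KO peripheral and 12423 and 25729 CPM in WT mesenteric members. It was 22903 and 43078 CPM in Xbp1-KO mesenteric members. Other blood endothelial cells of the pools had sums up to 33390 CPM. Without Xbp1-KO mesenteric nodes of library 2, the pool with the highest sum, the genotype median was 0.20 with 8 of 13 positive (all genes -0.12) and the tissue median -0.03 (all genes 0.12). Without Xbp1-KO mesenteric nodes of library 1 or WT mesenteric nodes of library 2, some heat shock genes were called between genotypes. A group is then a lone pool, so nothing about the list is read from those calls.

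Of genes known to rise when tissue is dissociated, all 20 tested had positive differences, Xbp1-KO minus WT, with a median of 0.52, and none passed. The summed level was 36854 and 69845 CPM in Xbp1-KO mesenteric members and 29309 and 29344 CPM in WT mesenteric members, and between 42125 and 48464 CPM in the peripheral pools. Without Xbp1-KO mesenteric nodes of library 2 the median was 0.01 with 10 of 20 positive (all genes -0.12). Some of the list were called without WT mesenteric nodes of library 2 or without library 1 of either mesenteric group. As a group is then a lone pool, those calls are not read as a result about the list. Between tissues this list did not follow the heat shock genes, as 13 of 20 differences, peripheral minus mesenteric, were positive with a median of 0.27 and none called, and 18 of 20 in WT alone with a median of 0.66. The median over both genotypes was 0.71 with 17 of 20 positive without Xbp1-KO mesenteric nodes of library 2 (all genes 0.12). It was 0.58 without WT mesenteric nodes of library 1. Some of the list were called in both fits, where a group is a lone pool. The library as a replicate block called 3 of the list between tissues, 1 higher and 2 lower in peripheral nodes, where 0.698% of all genes were called. Fos and Jun, immediate early genes of this list, were higher in members than in other blood endothelial cells in 8 of 8 pools, at medians of 6902 and 4854 CPM for Fos and 6239 and 4446 CPM for Jun.

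Genes of the endoplasmic reticulum that XBP1 is known to activate were tested for 20 of the 50 listed. Their median log2 difference, Xbp1-KO minus WT, was -0.14 with 4 of 20 positive and none called, where 983 of all 2007 genes were positive. The median of all genes was -0.01. The list's median was -0.07 with 8 of 20 positive without the 8 members of other markers, 0.07 with 17 of 32 positive without WT mesenteric nodes of library 1 (all genes 0.10), and 0.0058 with 24 of 48 positive without a filter on low counts (all genes 0.0086). Hspa5, an endoplasmic reticulum chaperone, lay at 231 to 509 CPM in WT and 349 to 630 CPM in Xbp1-KO members, so the groups overlapped. The list of PERK-ATF4 targets had 4 tested genes, with a median of -0.04 and none called.

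**Figure D5:**
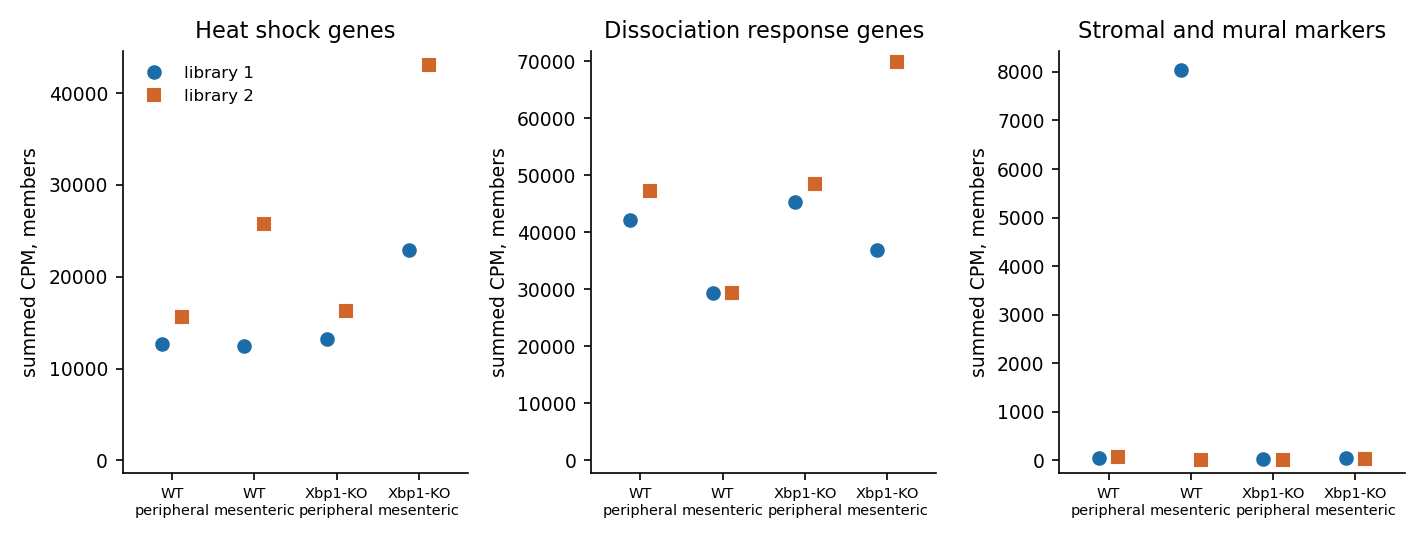
Summed level in members (y axes, CPM) of the heat shock, dissociation response and stromal and mural marker lists; each point is 1 pool of library 1 or 2. Xbp1-KO mesenteric nodes of library 2 are highest for heat shock (43078 CPM) and dissociation response genes (69845 CPM), and WT mesenteric nodes of library 1 for stromal and mural markers (8033 CPM).

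The other lists gave few calls. No gene of the lists of capillary identity (19 tested), collagen XIII partners and basement membrane (15), VEGF and Notch signalling (15), fatty acid uptake and handling (8), interferon response (19) or antigen presentation (12) was called between tissues or genotypes. Their medians, Xbp1-KO minus WT, were -0.06, -0.01, 0.16, 0.16, 0.39 and 0.02, and peripheral minus mesenteric -0.01, -0.05, 0.03, -0.19, -0.07 and 0.08. Without WT mesenteric nodes of library 2, some genes of the capillary identity, fatty acid handling and collagen XIII lists were called between tissues, and of the last between genotypes. That group is then a lone pool, so nothing about the lists is read from those calls. Single mesenteric pools moved the medians. Without one or another, the genotype median ran from 0.17 to 0.60 for the interferon response, from -0.11 to 0.37 for fatty acid handling, from 0.14 to 0.35 for VEGF and Notch signalling and from -0.16 to 0.16 for the collagen XIII list. The tissue median ran from -0.62 to 0.28 for fatty acid handling and from -0.42 to 0.10 for the collagen XIII list. Of 8 tested genes of leukocyte adhesion and chemokines, Cxcl1 was called between tissues, where 0.249% of all genes were. The lists of arterial (5 tested), venous (5), high endothelial (4), tip and angiogenic (4), enkephalin (4), mitochondrial calcium (3) and proliferation genes (1) had no call in either contrast, Penk apart, which was called between tissues under the block and without the 8 members but is read as no test. Of Cd36, Fabp4 and Gpihbp1, genes of fatty acid uptake, Fabp4 varied most, from 654 CPM in WT mesenteric nodes of library 2 to 6452 CPM in Xbp1-KO mesenteric nodes of library 1, in sums of 7 cells each.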

How the data were processed

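The deposited matrices hold raw counts of UMIs per gene and barcode, made by the authors with Cell Ranger on mm10; the file headers record version 6.0.1 and the submitters' processing notes 6.1. Whether intronic reads were counted is not given in the sources used here. The labels name a v2 kit in one place and v3 chemistry in another. Of 32285 gene identifiers, 99.8% matched GENCODE M21 (GRCm38), the source of coordinates.

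Cells were chosen by the rule in the opening paragraph. Scrublet in scanpy 1.11.5 marked 3.00% of barcodes in library 1 and 0.176% in library 2, too few there to have worked; 4 members were marked, kept and left out as an alternative. Counts were summed per library and pool, and fitted in edgeR 4.0.16 (filterByExpr, TMM, quasi-likelihood, R 4.3.3) with 1 mean per tissue and genotype. Calls had a Benjamini-Hochberg adjusted p under 0.05 over all genes tested. On simulated counts, 52% of 2-fold and 95% of 4-fold changes between tissues and 51% and 98% between genotypes were recovered over 2007 genes. Per the labels the 4 pools of a library form 1 library, so the library was used as a block in an alternative. In members, deviations of pools of the same library correlated at -0.03 to 0.21 over 2007 genes. This was not computed for all blood endothelial cells, where the block raised the genes called between tissues from 0.819% to 4.56%. Nor was it for the comparison with Scgb3a1 capillary cells, where the pool as a block raised calls from 0 to 6. DESeq2 1.42.0 was another alternative.

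The 23 gene lists, members and rules were chosen with earlier results of these data known. Named genes were, per contrast, those called with the same direction in every library and, where under 5 passed in a direction, the 5 of lowest p. For members beside other cells they had the 15 largest and 15 smallest median ratios among genes of the same sign in 8 of 8 pools, genes of the rule apart. From lists they were those called or of highest level. Genes chosen after their values were seen were Pam, Furin, Itga1, Kdr, Gpihbp1, Nrp1, the genes of the stromal cell, Xist, Ddx3y and those called under a single alternative.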

Additional observations from a re-analysis of the deposited data

Results flagged for a closer look

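In a group of 4 pools, a value far from the other 3 was looked for in 32 groups of shares and levels, a search in which chance picks out about 1 in 20. It found 4, all among the mesenteric pools of members and all in their highest pool. Penk stood at 448 CPM in WT mesenteric nodes of library 1, where the other mesenteric pools had at most 60.4 CPM. In the same pool Mt1 stood at 448 CPM and the stromal and mural markers summed to 8033 CPM. Nfkbiz stood at 292 CPM in Xbp1-KO mesenteric nodes of library 2. The WT mesenteric pool of library 1 held 18 members, with 1 of them carrying 507 of the 538 stromal UMIs; that cell held 2 of the 30 Penk UMIs and 3 of the 30 Mt1 UMIs.

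The Xbp1-KO share of members in peripheral nodes differed from WT by -7.14 percentage points in library 1 and by 6.50 points in library 2. With 1 pool per genotype, tissue and library this difference between libraries was not tested. Sex-linked transcripts changed sides between the libraries in the same pools, and these cannot be told apart from the library.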

How the results depend on the processing

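The higher share of members in peripheral nodes kept its direction under every alternative run, between 8.42 and 10.8 percentage points when a pool was left out. The genotype difference in share, 0.238 points, was -0.0911 with a hashtag ratio of at least 5 and ran from -2.41 to 3.07 without single pools. Over all blood endothelial cells without single pools, the peripheral excess ran from 3.23 to 7.63 for Penk, and Xbp1-KO minus WT from -1.11 to 2.66 for Penk, -0.17 to 0.13 for Col13a1 and -0.039 to 0.21 for Efhd1. The replicate block raised the Efhd1 tissue difference to 0.84, past the threshold, and the Penk and Col13a1 calls held.

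Counts of called genes in members moved widely. Between tissues, 5 became 14 with the library as a replicate block, 27 without a filter on low counts, 1 with a hashtag ratio of at least 5 or at least 1000 genes, 10 without the 8 members of other markers, and 0 in thinned sums or without UMIs of other panels. For WT alone, 0 became 9 with the block, 81 without the filter, 3 with library size alone, 4 with at least 3 panel UMIs and 1 without Scrublet calls. Between genotypes, 1 became 20 without the filter, 3 with at least 3 panel UMIs, 2 with at least 1000 genes, and 0 with a hashtag ratio of at least 5, thinned sums, no UMIs of other panels or without the 8 members. By tissue, genotype calls became 2 (peripheral) and 53 (mesenteric) without the filter, and 2 in mesenteric nodes with at least 3 panel UMIs or without the 8 members. The difference between these effects became 3 without the filter, and the comparison with Scgb3a1 capillary cells 6 with the pool as a block and 3 without the filter. Without single pools the counts ran from 0 to 29 (genotype), 0 to 2 (peripheral), 0 to 68 (mesenteric), 0 to 10 (their difference), 0 to 27 (tissue), 0 to 68 (tissue in WT) and 0 to 3 (against Scgb3a1 capillary cells); the genotype count was 29 without WT mesenteric nodes of library 2 and 5 without Xbp1-KO mesenteric nodes of library 1. A group is then a lone pool, assumed to vary like the others. The cause was not tested.

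Genes whose sign turned were Mt1 (0.0905 without the 8 members, 0.10 without WT mesenteric nodes of library 1), Cd55 (1.08 without that pool, 0.50 without library 1), Dnajb1 (-0.23), Nfkbia (-0.27) and mesenteric Atf3 (-0.0029), each without UMIs of other panels, and Atf3 also without library 2 (-0.083). S100a6 turned between tissues (1.07) and against Scgb3a1 capillary cells (0.71) without Xbp1-KO mesenteric nodes of library 2, and Fstl1 in the latter (1.69 without WT mesenteric nodes of library 1, 1.48 without the 8 members). The turned values of Mt1 and of Cd55 without that pool are over WT mesenteric members with 0 UMIs, and those of S100a6 over Xbp1-KO mesenteric members with 0, so they depend on the prior count. Without single pools the lowest values were -6.16 for Mt1, -4.52 for Cd55, -3.31 for S100a6 between tissues, and -3.87 for both S100a6 and Fstl1 against Scgb3a1 capillary cells. Sums of 17203 to 99377 UMIs limit the mesenteric values.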
